A study of Homo sapiens with 2 samples.

Results

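The mitochondrial respiratory chain and the ATP synthase were followed here through the nuclear genes whose names on the array begin with NDUFA, NDUFB, NDUFC, NDUFS, NDUFV, UQCR, ATP5, SDHA, SDHB, SDHC, SDHD or COX with a digit. This rule, which uses names and no measured value, found 99 of the 30238 gene names on the array and 151 of its 41000 probes. By name, 43 of the genes belonged to complex I, 8 to complex II, 7 to complex III, 24 to complex IV and 17 to complex V. Of the 99 genes, 81 were classed as subunits, and the other 18 were assembly factors, pseudogenes and names that only resemble those of subunits. The array carried 0 names of mitochondrially encoded subunits, so the subunits described are those encoded in the nucleus.

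The data compare 2 drug resistant lines, derived from the human ovarian carcinoma line A2780 by drug selection, with co-cultured controls. A2780CBN was resistant to carboplatin, a platinum drug that crosslinks DNA, at a terminal dose of 22.2 µM. A2780CBNDXL was resistant to carboplatin with docetaxel, a taxane that stabilizes microtubules, and the labels give 8.02 µM for the combination. The paper reports that value as the inhibitory concentration of carboplatin for this line, paired with docetaxel in the nanomolar range. It reports a lower maximally tolerated dose. Both lines and the controls, named A2780CC, grew at 37 °C with 5% carbon dioxide, and each line is a single selection, so a difference from the control cannot be told apart from one that arose in that culture alone. RNA of 3 isolations was pooled into 1 sample for each line and hybridized with RNA of the control on 4 two-colour arrays. Arrays 1 and 2 were on the first slide and arrays 3 and 4 on the second, with forward labelling (resistant line in Cy5) on arrays 1 and 3 and reverse labelling on arrays 2 and 4. All values are log2 ratios of resistant line over control, so that 1 is 2-fold higher and -1 is 2-fold lower. The SD is over the 4 arrays and covers labelling and hybridization error only, since with 1 sample per line no test across cultures was possible. The A2780DXL line was not analysed here.

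Electrons from NADH enter the chain at complex I and those from succinate at complex II. They pass through coenzyme Q to complex III and through cytochrome c to complex IV, which reduces oxygen, and the protons pumped on the way drive ATP synthesis at complex V. Most subunits are encoded in the nucleus and imported, a few are encoded in mitochondrial DNA, and dedicated assembly factors that are not part of the finished enzymes join subunits, hemes and metal centres. In tumor cells the chain also supplies oxidizing power for nucleotide and aspartate synthesis.

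On each array 59.8 to 67.5% of spots were well above background, signal exceeded the local background 2.28 to 3.52 times at the median spot and 0 spots were saturated. The coefficient of variation of spike-in spots was 19.55% (green) and 19.99% (red) on array 1 of A2780CBNDXL. On the other arrays it was 3.559 to 4.872%. Results without array 1 are given with the alternatives. Members of the chain were among the brightest genes, with a median signal of 17741 intensity units on the A2780CBN arrays and 17609 on the A2780CBNDXL arrays, beside 783 and 947 over all genes. A mean was used for a gene measured on all 4 arrays with the same RNA well above background on each. In A2780CBN 86 members passed this filter. Of the others, 10 had a spot marked as an outlier by the scanner software on at least 1 array and 3, COX4I2, COX7A1 and COX7B2, were too dim. In A2780CBNDXL 75 passed, 20 had an outlier spot and 4 were too dim, NDUFA4L2 besides the same 3. On array 3 of A2780CBNDXL 15.2% of member spots were marked beside 2.32% of all spots. Whether that loss moved the counts of members was examined by keeping these spots, which is described with the alternatives.

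As a check of the cells, the markers CDH1, WT1, MUC16, PTPRC and PECAM1 were not above background on any array. EPCAM was 2.07 in A2780CBN and 1.67 in A2780CBNDXL, and KRT18 was 1.05 and 0.51. The other keratins were KRT8, at -0.37 and 0.18, and KRT19, at -0.48 in A2780CBN and not past the filter in A2780CBNDXL. Of the 2 mesenchymal markers, VIM was 1.08 and 0.30, and CDH2 was -0.21 in A2780CBN and not past the filter in A2780CBNDXL. The ovarian and Mullerian markers were PAX8 (0.21 and 0.33), WFDC2 (1.20 and -0.06) and ESR1 (-0.36 and 0.24). Of 8 markers of other cell types, 5 were above background on all arrays. Their summed signal was 36718 to 46070 in A2780CBN against 11882 to 18306 in its control, and 44568 to 61339 in A2780CBNDXL against 15670 to 22079. COL3A1, a collagen of connective tissue, made up most of this sum, and its log2 ratio was 1.44 and 1.16. The stromal genes COL1A1 (0.99 and 2.04) and DCN (2.21 and 3.62) also had positive ratios, whereas CD14 of monocytes was lower past 1.5-fold (-0.59 and -0.68) and CD3E of T cells was 0.10 and -0.02. Their part in the results on the respiratory chain was not tested. In such samples fewer cells of a type and less RNA per cell cannot be told apart.

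Across the chain the subunits lay close to the control in both lines. A gene was called higher or lower where its mean was at least 2-fold, no array had the opposite sign and the same RNA was well above background on each array. None of the 68 subunits that passed in A2780CBN and none of the 58 in A2780CBNDXL reached 2-fold, beside 12.6% and 17.0% of all genes that passed. With a limit of 1.5-fold, 1 subunit was higher and 2 were lower in A2780CBN (4.41% of the subunits that passed, beside 27.1% of all genes), and 2 were higher and none lower in A2780CBNDXL (3.45% beside 33.4%). COX4NB and the pseudogenes were set aside from the assembly factors. The 15 factors that passed in A2780CBN held none at 2-fold and 4 lower at 1.5-fold (26.7%, beside 27.1% of all genes). The 14 that passed in A2780CBNDXL held 3 lower at 2-fold (21.4%, beside 17.0%) and the same 3 at 1.5-fold (21.4%, beside 33.4%). With forward labelling alone, or with the mean over all probes of a gene, none of these 3 was lower by 2-fold.

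Counted over all members, 1 of 86 was lower by 2-fold in A2780CBN and none was higher, while 4.57% of the 17949 genes that passed were lower and 8.01% higher. In A2780CBNDXL 4 of 75 members were lower by 2-fold and none was higher, while 9.24% of 17119 genes were lower and 7.72% higher. At 1.5-fold 8 members were lower and 1 higher in A2780CBN (12.5% and 14.6% of all genes), and 5 were lower and 2 higher in A2780CBNDXL (17.0% and 16.4%). The median SD over arrays was 0.17 for members in each line beside 0.24 and 0.21 for all genes. The counts are those of 1 sample per line and were not tested.

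**Figure D1:**
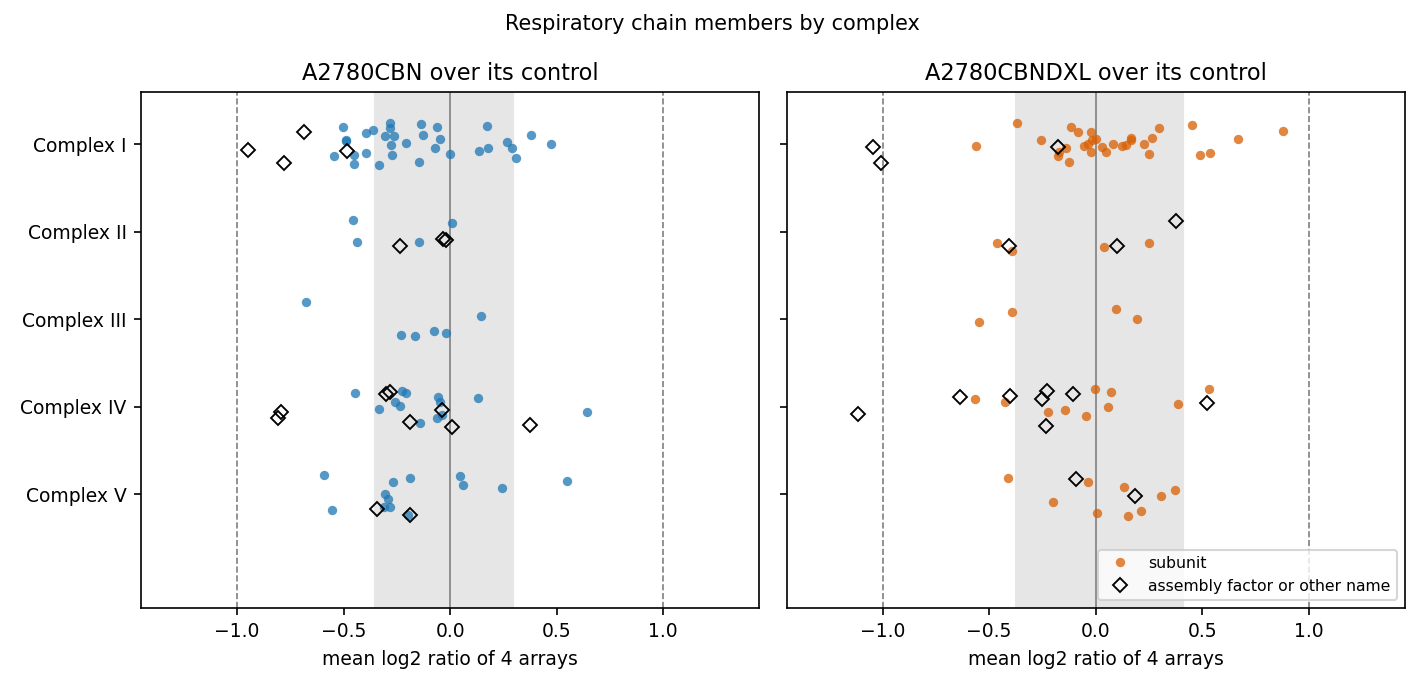
Mean log2 ratio of resistant line over control for members measured on all 4 arrays, by complex as the gene name gives it, in A2780CBN and A2780CBNDXL. Filled points are subunits, open diamonds are assembly factors and other names, the grey band runs from the lower to the upper quartile of all genes and dashed lines mark 2-fold. The probe named SDHALP2 lies off the scale and is left out. Subunits sit inside the dashed lines, and in A2780CBN most lie left of 0.

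In A2780CBN most of the chain lay slightly below the control. The median log2 ratio of the 86 members was -0.22 with quartiles of -0.36 and -0.03, beside -0.06 (quartiles -0.35 and 0.30) over all genes. A mean below 0 was found for 67 of 86 members (77.9%), beside 55.0% of all genes. The ratio was below 0 on all 4 arrays for 52.3% of members and 33.1% of all genes, and above 0 on all 4 for 8.14% and 27.7%. In A2780CBNDXL the median was -0.02 (quartiles -0.23 and 0.17) beside 0.04 over all genes. Of the 75 members, 40 (53.3%) had a mean below 0, beside 47.2% of all genes. There 33.3% of members and 33.1% of all genes were below 0 on all 4 arrays, and 24.0% and 36.4% were above 0 on all 4.

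Complex I, which oxidizes NADH, was represented by the most genes. Its subunits had a median of -0.27 in A2780CBN and 0.01 in A2780CBNDXL. The core subunits of the hydrophilic arm, which carry flavin and iron-sulfur clusters, had a median of -0.14 and 0.16, and the accessory subunits, which surround the core, had -0.28 and 0.00. Among the core, NDUFV2 of the NADH-binding module gave -0.53, -0.51, -0.47 and -0.51 on arrays 1 to 4 of A2780CBN (mean -0.50 ± 0.02, SD over 4 arrays) and -0.04 ± 0.09 in A2780CBNDXL. NDUFS3 was -0.07 ± 0.05 and 0.16 ± 0.03.

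Of the accessory subunits of complex I, 1 passed 1.5-fold in A2780CBNDXL and none in A2780CBN. NDUFB11, an X-linked subunit of the membrane arm (probe at chromosome X, 46886990 to 46887049 on NCBI36), gave 0.80, 1.02, 0.75 and 0.95 on arrays 1 to 4 of A2780CBNDXL. Its mean was 0.88 ± 0.13, 1.84-fold higher. In A2780CBN it gave 0.50, -0.22, 0.66 and -0.22 (0.18 ± 0.47), positive on the forward arrays and negative on the reverse ones. NDUFB3, another membrane arm subunit, was -0.46, -0.48, -0.42 and -0.44 in A2780CBN (-0.45 ± 0.03) and 0.50, 0.14, 0.39 and 0.16 in A2780CBNDXL (0.30 ± 0.17). The values of the lines did not overlap. NDUFB8 was -0.08, 0.84, -0.08 and 0.84 in A2780CBN, a value set by labelling direction (0.38 ± 0.53), and -0.26 ± 0.05 in A2780CBNDXL. NDUFB10 was -0.49 ± 0.14 and 0.03 ± 0.05. NDUFA13, also known as GRIM-19, was 0.31 ± 0.11 and 0.54 ± 0.26. NDUFC2 was -0.26 ± 0.35 and -0.56 ± 0.04 by its bright probe, while its dim probe gave 0.45 in A2780CBNDXL.

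NDUFA10 could not be counted in A2780CBN, since its brightest probe had an outlier spot on array 4. The remaining arrays gave -0.64, -0.78 and -0.60 (-0.70 ± 0.09, 3 arrays), and the other 3 probes of the gene gave -0.90, -1.41 and -0.82. In A2780CBNDXL the brightest probe was -0.02 ± 0.22, and the other 3 gave -0.05, -0.53 and -0.18. NDUFA10 is an accessory subunit related to nucleoside kinases.

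NDUFA4 was first assigned to complex I and is now placed in complex IV, which its current symbol COXFA4 reflects. It was measured at chromosome 7, 10939710 to 10939769, and gave 0.23, 0.28, 0.29 and 0.27 in A2780CBN (0.27 ± 0.03). In A2780CBNDXL it gave 0.84, 0.59, 0.77 and 0.47 (0.67 ± 0.17) and was higher past 1.5-fold, and all 4 of these values lay above those of A2780CBN. Its second probe gave 0.27 and, on 3 arrays, 0.74. Its hypoxia-linked paralog NDUFA4L2 was near background: 1.06, -0.32, 1.42 and -0.27 in A2780CBN and -1.57 ± 0.85 in A2780CBNDXL, where it did not pass the filter.

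Among the complex I names the lowest means in both lines were those of assembly factors. NDUFAF4, which acts in early assembly of the hydrophilic arm, was measured at chromosome 6, 97445906 to 97445965. It gave -0.91, -0.90, -1.06 and -0.92 in A2780CBN (-0.95 ± 0.08, 1.93-fold lower) and -0.80, -1.26, -0.88 and -1.24 in A2780CBNDXL (-1.04 ± 0.24, 2.06-fold lower). A dim second probe gave -0.61 ± 0.13 and -0.48 ± 0.49. NDUFAF2, a paralog of an accessory subunit that binds a late intermediate (probe across an exon junction, chromosome 5, 60404765 to 60430601), gave -0.89, -0.74, -0.96 and -0.53 in A2780CBN (-0.78 ± 0.19). It gave -0.90, -1.16, -0.82 and -1.14 in A2780CBNDXL (-1.01 ± 0.17, 2.01-fold lower). Its other probes gave -0.67 and -0.77 in A2780CBN and -0.83 and -0.99 in A2780CBNDXL, so all 3 probes had the same sign and a similar size.

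Both factors lay close to the 2-fold limit, with NDUFAF2 just past it in A2780CBNDXL and NDUFAF4 just short of it in A2780CBN. NDUFAF3, a partner of NDUFAF4, was -1.14, -0.27, -1.14 and -0.19 in A2780CBN (-0.69 ± 0.53), far lower on the forward arrays than on the reverse ones. On 3 arrays of A2780CBNDXL it was -0.41 ± 0.39. NDUFAF1 was -0.49 ± 0.30 and -0.18 ± 0.08.

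Promoter sequence of the factors named here is given because nuclear genes of the chain are known targets of NRF1, of ETS family factors such as GABP and of YY1. RefSeq promoters on GRCh38.p14, from 250 bases before to 50 after the start, were found for 81 members, with 100 promoters in all. The NRF1 core GCGCATGC was present on either strand in 20 of them (20%) beside 3.05% of all 35116 promoters. The ETS motif CCGGAAG was in 28% beside 10.3%, and the YY1 motif AAGATGGCG in 11% beside 1.75%. The ETS motif ends with the letters AAG, with which the YY1 motif begins, so that matches to both can overlap. A match is a description of letters and was not set against binding data. The 250 bases before the start follow for a gene lower in both lines without a match there (NDUFAF2), a gene lower in both lines with 1 ETS match (NDUFAF4) and a gene whose lines stood apart (COX10, 2 ETS matches), with ETS matches in capitals.
NDUFAF2, chr5:60944955-60945204, plus strand: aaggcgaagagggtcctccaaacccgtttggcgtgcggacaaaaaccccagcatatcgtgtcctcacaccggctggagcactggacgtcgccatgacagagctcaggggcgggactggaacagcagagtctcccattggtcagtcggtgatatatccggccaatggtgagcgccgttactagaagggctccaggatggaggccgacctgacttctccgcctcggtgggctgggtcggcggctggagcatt
NDUFAF4, chr6:96897892-96898141, minus strand: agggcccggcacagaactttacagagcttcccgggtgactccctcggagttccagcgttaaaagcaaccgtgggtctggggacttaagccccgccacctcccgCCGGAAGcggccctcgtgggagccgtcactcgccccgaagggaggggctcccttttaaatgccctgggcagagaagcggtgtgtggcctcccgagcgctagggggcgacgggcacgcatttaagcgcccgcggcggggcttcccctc
COX10, chr17:14069254-14069503, plus strand: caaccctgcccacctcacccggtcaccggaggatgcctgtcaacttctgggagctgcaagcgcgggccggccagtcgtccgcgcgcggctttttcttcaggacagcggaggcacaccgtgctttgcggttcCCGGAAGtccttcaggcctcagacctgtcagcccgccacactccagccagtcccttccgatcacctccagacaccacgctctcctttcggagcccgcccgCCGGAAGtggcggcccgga
NDUFAF4 also had an NRF1 match and COX10 a YY1 match, which lie in the 50 bases after the start.

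**Figure D2:**
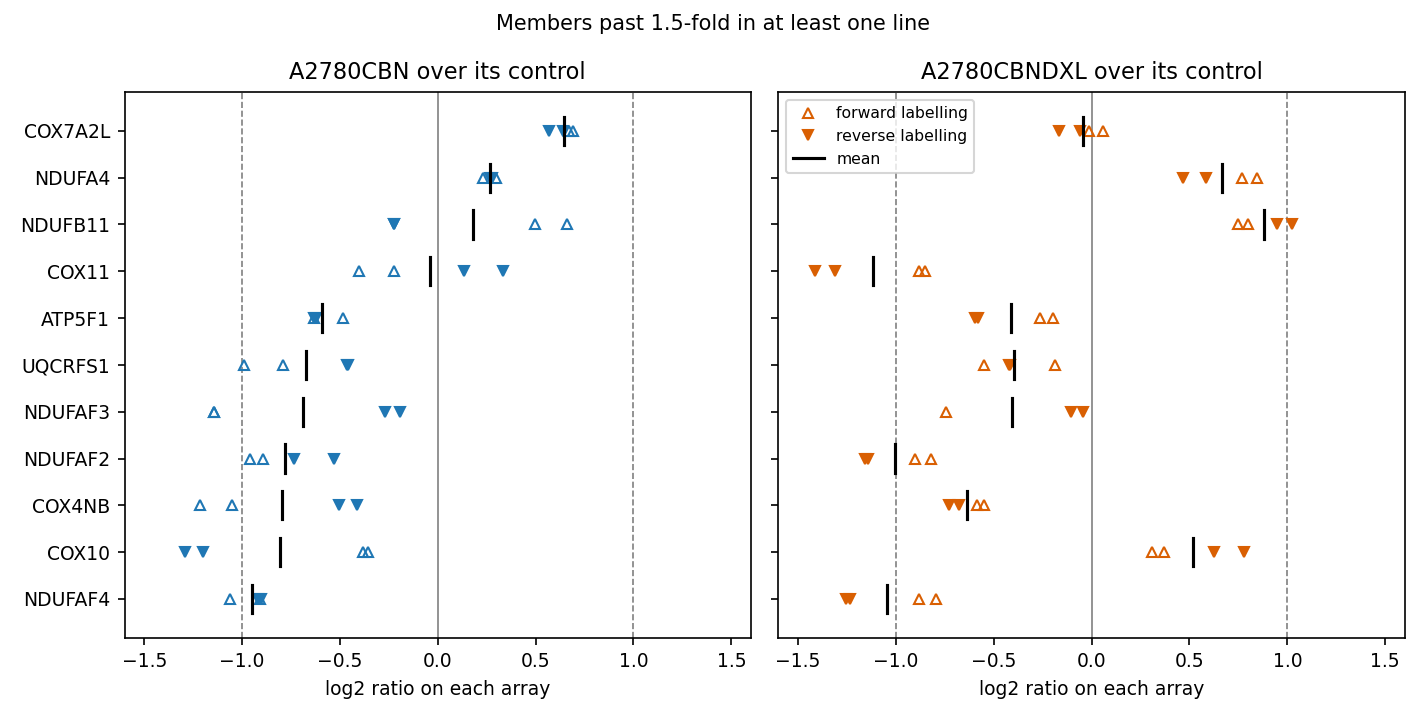
Log2 ratio of resistant line over control on each array for the members past 1.5-fold in at least one line, in A2780CBN and A2780CBNDXL, without the probe named SDHALP2. Open triangles are forward and filled triangles reverse labelled arrays, the bar is the mean, and dashed lines mark 2-fold. NDUFAF4 and NDUFAF2 lie left of 0 on all arrays of both lines, COX10 changes side between the lines, and COX11 lies apart from 0 in A2780CBNDXL.

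Complex II, the succinate dehydrogenase shared with the tricarboxylic acid cycle, had none of its 4 subunits past 1.5-fold. SDHA, the flavoprotein, was 0.01 ± 0.07 in A2780CBN and -0.03, 0.50, 0.03 and 0.51 in A2780CBNDXL (0.25 ± 0.29). SDHA has near-identical pseudogene copies, so its probe may also report their transcripts. SDHB, the iron-sulfur subunit, was -0.44 ± 0.11 and -0.39 ± 0.07, below 0 on all arrays of both lines. SDHC, a membrane anchor, was -0.14 ± 0.10 and 0.04 ± 0.11. SDHD, the other anchor, was -0.45 ± 0.20 and -0.46 ± 0.20, and its 4 probes lay between -0.47 and -0.43 in A2780CBN and between -0.51 and -0.46 in A2780CBNDXL. The assembly factor SDHAF1 was -0.24 ± 0.14 and -0.41 ± 0.09.

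The lowest ratios of any member came from a probe whose identity is in doubt. The probe named SDHALP2, an older name of the pseudogene SDHAP2, gave -4.60, -2.92, -4.16 and -4.78 in A2780CBN (-4.11 ± 0.84), and -4.14 to -2.33 over the arrays of A2780CBNDXL (-3.31 ± 0.89). On these arrays the resistant line's signal did not rise clearly over background, so the change is a bound, at least 4.66-fold lower in A2780CBN and at least 4.27-fold lower in A2780CBNDXL, computed against the lowest signal well above background. The array's annotation places this probe at chromosome 8, 30522489 to 30522548, whereas SDHAP2 lies on chromosome 3 in RefSeq, and its values are not taken as those of an SDHA copy. The probe named SDHALP1, on chromosome 3, was -0.02 ± 0.19 and 0.38 ± 0.43. Without the SDHALP2 probe the members lower by 2-fold were none in A2780CBN and 3 in A2780CBNDXL.

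For complex III, the cytochrome bc1 complex, the median was -0.12 over 6 members in A2780CBN and -0.15 over 4 in A2780CBNDXL. These sets differ, and only 3 members passed in both. Their median difference, A2780CBNDXL minus A2780CBN, was 0.28. The complex III subunits CYC1 and UCRC lie outside the rule and are given with the cytochrome c list. UQCRFS1, the Rieske iron-sulfur protein (chromosome 19, 34390196 to 34390255), gave -0.79, -0.46, -0.99 and -0.46 in A2780CBN. Its mean of -0.68 ± 0.26 was lower past 1.5-fold, and in A2780CBNDXL it was -0.39 ± 0.15. A second probe gave -0.64 and -0.35. The core protein UQCRC1 was 0.34, -0.54, 0.42 and -0.52 in A2780CBN, with opposite signs by labelling direction, and 0.19 ± 0.23 in A2780CBNDXL. UQCRB, which helps bind ubiquinone, was 0.14 ± 0.14 in A2780CBN and 0.08 on 3 arrays of A2780CBNDXL. UQCRQ was -0.05 on 3 arrays of A2780CBN and -0.38, -0.69, -0.37 and -0.74 in A2780CBNDXL (-0.55 ± 0.20), below 0 on all 4 but not past 1.5-fold.

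Complex IV, the terminal cytochrome c oxidase, had subunit medians of -0.14 and -0.02. Its names held the member with the highest mean in A2780CBN. COX7A2L, a protein that joins complexes III and IV into supercomplexes (chromosome 2, 42431377 to 42431436), gave 0.69, 0.57, 0.67 and 0.64 on arrays 1 to 4 of A2780CBN (0.64 ± 0.05, higher past 1.5-fold). With background-subtracted signals centred on the median it was 0.57, just under 1.5-fold. In A2780CBNDXL it gave -0.02, -0.06, 0.06 and -0.17 (-0.05 ± 0.09), and the lines did not overlap. A second probe gave 0.57 and -0.10. COX5A, a subunit on the matrix side, was -0.24 ± 0.21 and -0.57 ± 0.38, while its second probe gave -0.17 ± 0.52 and -0.20 ± 0.15. COX6C was -0.33 ± 0.26 and -0.42 ± 0.34, and COX7B was -0.45 ± 0.25 and 0.00 ± 0.30. A dimmer second probe of COX7B gave -0.62 ± 0.08 and -0.47 ± 0.07.

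Several subunits of complex IV come as isoform pairs, with a common form and a form of muscle, lung or testis. The common forms COX6A1 (-0.04 ± 0.04 and -0.14 ± 0.05), COX4I1 (-0.26 ± 0.04, and -0.24 on 3 arrays) and COX6B1 (-0.14 ± 0.17, and 0.00 on 3 arrays) stayed under 1.5-fold. Of the tissue forms, COX6A2 was 0.13 ± 0.23 in A2780CBN and 0.53, 0.52, 0.55 and 0.52 in A2780CBNDXL (0.53 ± 0.02), and COX6B2 was -0.06 ± 0.23 and 0.39 ± 0.13. A second, dimmer COX6B2 probe also passed the filter and gave 1.35 ± 0.53 and 0.92 ± 0.37. With the mean over all probes of a gene, COX6B2 was higher past 1.5-fold in both lines. COX4I2, COX7A1 and COX7B2 did not pass the filter in either line. Another probe named COX4I1 (chromosome 16, 84397767 to 84397826) gave -0.99 in A2780CBN and 0.21 in A2780CBNDXL, apart from its brightest probe.

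Assembly factors of complex IV differed in direction from each other and between the lines. COX11, a copper chaperone of the catalytic core, was measured by 5 probes, the brightest at chromosome 17, 50394347 to 50394406. It gave -0.88, -1.31, -0.85 and -1.41 in A2780CBNDXL and was 2.17-fold lower, and -0.22, 0.13, -0.40 and 0.34 in A2780CBN (-0.04 ± 0.33). The other 4 probes gave -1.08, -0.81, -0.84 and -0.63 in A2780CBNDXL and -0.14, -0.08, 0.10 and 0.18 in A2780CBN. In each line the probe means lay on the same side of -0.5. The last of these probes gave 0.00 and -0.05 on the forward arrays of A2780CBNDXL and -1.23 on both reverse ones.

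COX10, which makes heme O for cytochrome oxidase (chromosome 17, 14051954 to 14052013), gave -0.38, -1.29, -0.36 and -1.20 in A2780CBN (-0.81 ± 0.51, lower past 1.5-fold). With normexp background correction and loess its mean in A2780CBN was -0.29, under 1.5-fold. In A2780CBNDXL it gave 0.31, 0.63, 0.37 and 0.78 (0.52 ± 0.22), above 0 on all 4 arrays but not past 1.5-fold. COX15, which converts heme O to heme A, was 0.11, 0.72, 0.06 and 0.62 in A2780CBN (0.38 ± 0.34) and -0.28, -0.16, -0.41 and -0.15 in A2780CBNDXL (-0.25 ± 0.12), the opposite order to COX10. A dimmer second probe of COX15 gave 0.75 ± 0.14 in A2780CBN and 0.00 ± 0.20 in A2780CBNDXL. COX17, which delivers copper, was -0.19 ± 0.22 and -0.23 ± 0.31, and COX18 was -0.28 ± 0.12 and -0.40 ± 0.52. COX4NB, whose current symbol EMC8 is that of a membrane insertion complex of the endoplasmic reticulum, was lower past 1.5-fold in both lines (-0.80 ± 0.40 and -0.64 ± 0.08), and it is a member by name only.

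**Figure D3:**
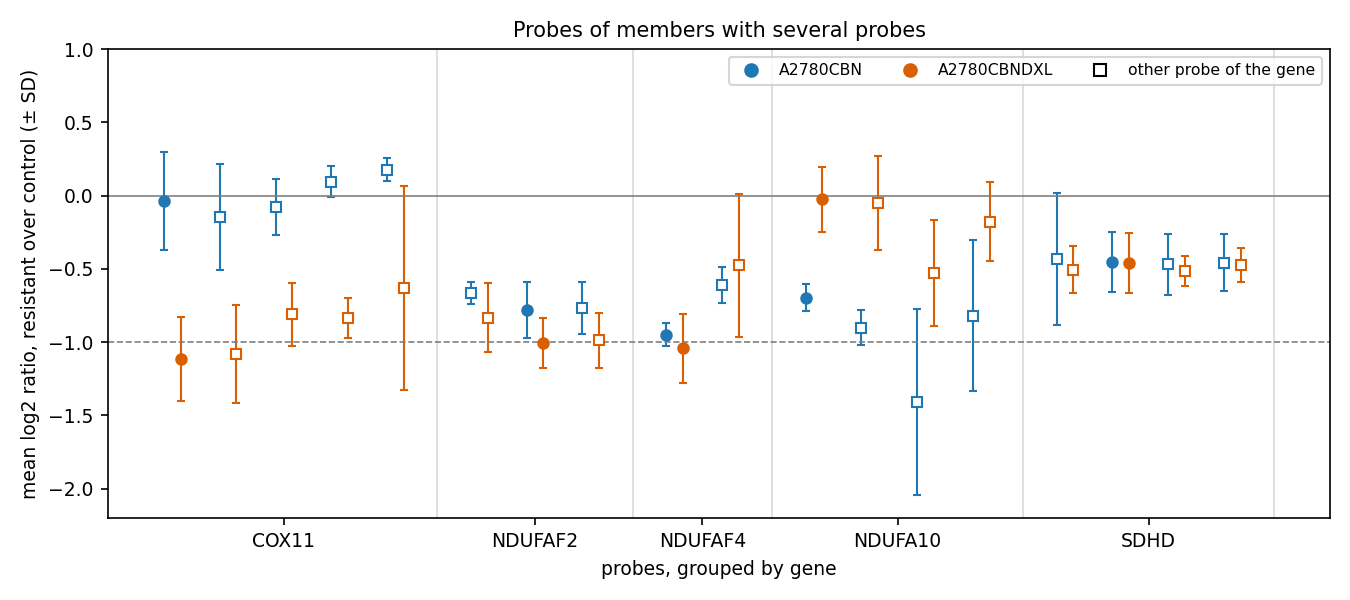
Mean log2 ratio with SD over the arrays for each probe of 5 members with several probes, in A2780CBN and A2780CBNDXL. Filled circles are the probe that represents the gene and open squares the other probes, and the dashed line marks 2-fold lower. The COX11 probes lie near 0 in A2780CBN and below -0.5 in A2780CBNDXL, and the SDHD probes lie together in both lines.

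Probes of the same gene could be compared for 31 members in A2780CBN and 27 in A2780CBNDXL. The median range between probes of a gene was 0.11 and 0.17 on the log2 scale. It reached 1.5-fold in 5 and 3 members. No member had probes past 1.5-fold in opposite directions.

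Complex V, the ATP synthase, had subunit medians of -0.27 and 0.13, and the catalytic F1 part had -0.29 and 0.07. ATP5F1, the b subunit of the peripheral stalk (current symbol ATP5PB, chromosome 1, 111805166 to 111805225), gave -0.49, -0.62, -0.63 and -0.63 in A2780CBN. Its mean of -0.59 ± 0.07 was lower just past 1.5-fold, and in A2780CBNDXL it was -0.41 ± 0.21. A dim second probe gave -1.04 ± 0.60 and 0.04 ± 0.62. ATP5J, another stalk subunit, was -0.55 ± 0.10 in A2780CBN and 0.01 on 3 arrays of A2780CBNDXL. ATP5H, also of the stalk, was 0.03, 1.11, -0.06 and 1.12 in A2780CBN (0.55 ± 0.65) and -0.20 ± 0.05 in A2780CBNDXL, so its positive mean came from the reverse labelled arrays alone.

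The membrane ring of the synthase is built from a single protein encoded by the genes ATP5G1, ATP5G2 and ATP5G3. ATP5G1 was 0.24 ± 0.20 in A2780CBN and -0.25 on 3 arrays of A2780CBNDXL. ATP5G2 was 0.04 ± 0.20 and 0.37 ± 0.23. ATP5G3 was -0.77, -0.83 and -0.58 on 3 arrays of A2780CBN (-0.69 ± 0.13), and in A2780CBNDXL both forward arrays were marked as outliers and the reverse ones gave -0.43 and -0.54. ATP5E, the epsilon subunit, was -0.28 and 0.01 by its brightest probe and -0.15 and 0.20 by another, while a dim probe gave -1.11 and -0.44.

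The lines were set side by side as the log2 ratio of A2780CBNDXL minus that of A2780CBN, which rests on a separate co-cultured control for each line. The median difference over the 68 members measured in both was 0.22, beside 0.10 over 16131 genes. In the arrays of the resistant lines themselves the members' median difference was 0.24, and in the control channels it was 0.01. By the rule used within a line, 1 of 68 members was higher in A2780CBNDXL by 2-fold (6.04% of all genes) and 1 was lower (10.6%). COX10 was the member with the higher value, by 1.33 ± 0.72, of which the resistant channels gave 1.15 ± 0.15 and the control channels -0.17 ± 0.56. COX11 had the lower value, -1.08 ± 0.62, with -0.79 ± 0.07 and 0.28 ± 0.58.

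Other members with large differences were NDUFB3 (0.75 ± 0.17) and NDUFB11 (0.70 ± 0.59) on the higher side, apart from the SDHALP2 probe. On the lower side they were ATP5H (-0.75 ± 0.63), COX7A2L (-0.69 ± 0.09), NDUFB8 (-0.64 ± 0.56) and COX15 (-0.63 ± 0.23). For NDUFB11, ATP5H and NDUFB8 the SD was nearly as large as the difference.

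**Figure D4:**
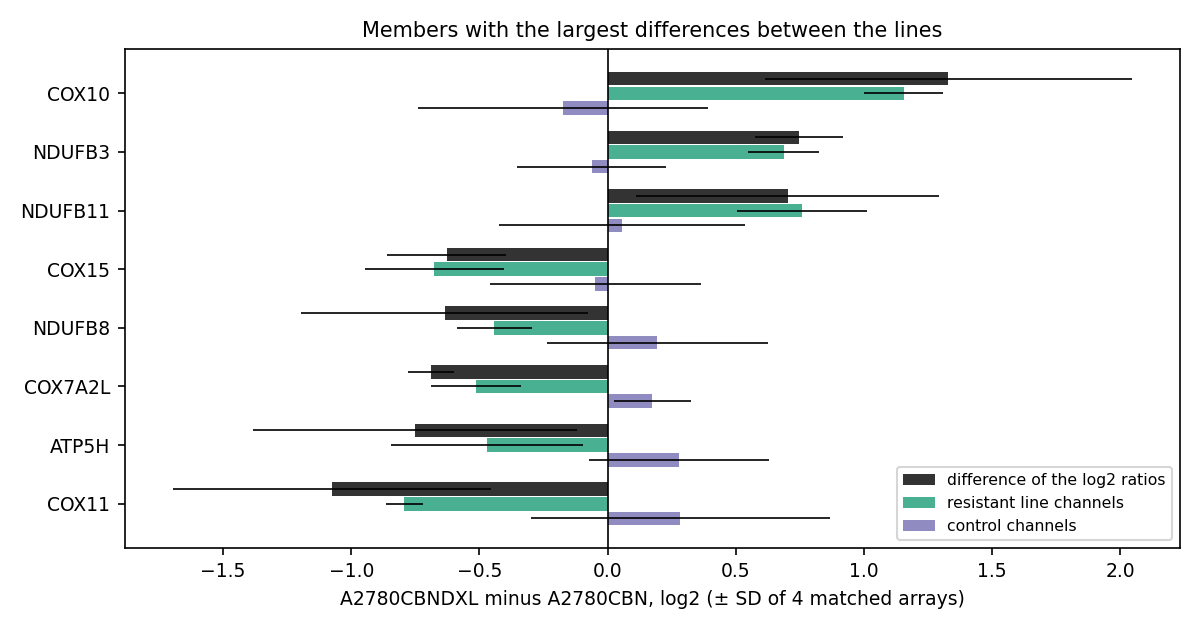
Log2 ratio of A2780CBNDXL minus that of A2780CBN for 3 members with high and 5 with low differences, without the probe named SDHALP2. Bars give the difference of the ratios and the same difference in the resistant line and control channels, with the SD over 4 matched arrays. COX10 (1.33) and COX11 (-1.08) pass 2-fold, and the control channels have wide SDs around 0.

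Genes on the cytochrome c and coenzyme Q side of the chain were followed in a list of 11, 9 of them on the array. The list also held CYC1 and UCRC, complex III subunits whose names lie outside the rule, and the assembly factor UQCC. UCRC was -0.68 ± 0.15 in A2780CBN, lower past 1.5-fold, and -0.21 ± 0.11 in A2780CBNDXL. CYC1 was -0.44 ± 0.36 and -0.13 ± 0.22. CYCS, cytochrome c itself, was the member of this list with the lowest mean in A2780CBNDXL. It gave -0.95, -0.62, -0.95 and -0.65 in A2780CBN (-0.79 ± 0.18, 1.73-fold lower) and -1.18, -1.48, -1.26 and -1.37 in A2780CBNDXL (-1.32 ± 0.13, 2.50-fold lower). At 2-fold no gene of the list passed in A2780CBN and CYCS alone in A2780CBNDXL, and at 1.5-fold 4 were lower in A2780CBN, and 1 was higher and 1 lower in A2780CBNDXL. These are 0% and 11.1% of the list at 2-fold, beside 12.6% and 17.0% of all genes, and 44.4% and 22.2% at 1.5-fold, beside 27.1% and 33.4%. GPD2, which passes electrons from glycerol phosphate to coenzyme Q, was -1.03, -0.86, -1.03 and -1.09 in A2780CBN and just missed the 2-fold limit, and was -0.50 ± 0.12 in A2780CBNDXL. DHODH, of pyrimidine synthesis, was -0.80 and -0.52. ETFB, of the electron transfer flavoprotein, was 0.48 ± 0.10 and 0.96 ± 0.16, higher past 1.5-fold in A2780CBNDXL. The list's median was -0.44 and -0.21.

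Of 21 assembly factors whose names lie outside the rule, 18 were on the array, with medians of -0.05 and 0.09. At 2-fold 1 of the 18 that passed, BCS1L, was lower in A2780CBN (5.56% of the list beside 12.6% of all genes), and none of 16 passed it in A2780CBNDXL. BCS1L, which inserts the Rieske protein UQCRFS1 into complex III, gave -1.26, -1.04, -1.13 and -0.99 in A2780CBN (-1.10 ± 0.12, 2.15-fold lower) and -0.41 on 3 arrays of A2780CBNDXL. C20orf7, a complex I factor, was -0.68 ± 0.13 and -0.94 ± 0.27, lower past 1.5-fold in both lines.

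Regulators of mitochondrial biogenesis were measured for 20 genes and had medians of -0.42 and -0.21. In each line 2 were lower by 2-fold, and these were PPARGC1B and GABPB1. PPARGC1B, a coactivator of the chain's nuclear genes, gave -1.31, -0.90, -1.40 and -0.99 in A2780CBN (2.22-fold lower) and -0.96, -1.83, -1.14 and -1.82 in A2780CBNDXL (2.71-fold lower). GABPB1, a subunit of the ETS factor GABP, lay between -1.21 and -0.99 on the arrays of A2780CBN (2.13-fold lower) and gave -0.66, -1.39, -0.72 and -1.51 in A2780CBNDXL (2.10-fold lower). These are 10.5% and 11.1% of the genes that passed, under the 12.6% and 17.0% of all genes. At 1.5-fold 6 genes were lower in A2780CBN and 4 in A2780CBNDXL (31.6% and 22.2%, beside 27.1% and 33.4% of all genes). TFAM, which packages and transcribes mitochondrial DNA, was -0.72 ± 0.07 and -0.69 ± 0.32, and TFB1M was -0.66 and -0.67, so both were lower past 1.5-fold in each line.

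Neighbouring mitochondrial lists had few genes past 2-fold. None of the 15 genes of the tricarboxylic acid cycle reached it in either line, and their medians were -0.17 and -0.02. Of 77 mitochondrial ribosomal proteins 1 was lower by 2-fold in each line, MRPS30 (-1.20 ± 0.30 and -1.22 ± 0.04). At 1.5-fold 12 of the 72 that passed were lower and 1 higher in A2780CBN, and 10 of 66 were lower and 1 higher in A2780CBNDXL, with medians of -0.37 and -0.12. These are 18.1% and 16.7% called, beside 27.1% and 33.4% of all genes. The 21 genes of the import machinery had none at 2-fold, and at 1.5-fold 5 were lower in A2780CBN, and 2 were lower and 1 higher in A2780CBNDXL, with medians of -0.46 and -0.20. These are 25% of 20 that passed and 18.8% of 16, beside 27.1% and 33.4% of all genes.

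A list of 16 modulators covered genes that act on pyruvate entry, ADP exchange, proton leak and related steps. In A2780CBN all 16 passed the filter and 1 was higher and 1 lower by 2-fold, 12.5% beside 12.6% of all genes. In A2780CBNDXL 12 passed, of which 1 was higher and 4 were lower by 2-fold, 41.7% beside 17.0%. PDK1, a kinase that inhibits pyruvate dehydrogenase, gave -1.02, -1.07, -0.96 and -1.06 in A2780CBN (2.04-fold lower) and -2.44, -2.95, -2.36 and -2.96 in A2780CBNDXL (6.40-fold lower). Its paralog PDK2 gave 1.74, 0.71, 1.74 and 0.65 (2.32-fold higher) and 1.11, 1.08, 1.04 and 1.05 (2.10-fold higher). PDK3 was 0.17 ± 0.24 in A2780CBN and -1.63 ± 0.15 in A2780CBNDXL, 3.09-fold lower. SLC25A4, the muscle form of the ADP/ATP carrier, was -0.61 ± 0.11 and -1.44 ± 0.17, 2.71-fold lower in A2780CBNDXL. UCP2, of the uncoupling protein family, was 1.79, -0.15, 1.79 and -0.31 in A2780CBN, where labelling directions had opposite signs, and -1.01 ± 0.55 in A2780CBNDXL.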

How the data were processed

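The deposited files hold Agilent Feature Extraction output (version 10.7.1.1 for slide 1, 10.7.3.1 for slide 2) for 8 two-colour arrays, with probe coordinates on NCBI36. Per the file headers, the processed intensity of each channel was background-subtracted and dye-normalized within the array by the authors, and these values were used. Deposited mean, background and background-subtracted intensities served only for alternatives. On reverse labelled arrays the dye entries of the labels conflict with their name and the methods, and they were turned over as the name states. Log2 ratios of forward and reverse arrays then correlated, across genes, at 0.78 to 0.81 in A2780CBN and 0.89 to 0.90 in A2780CBNDXL. The sign rests on this reading.

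Outlier spots were left out, spots of a probe averaged, and ratios averaged within and then over labelling directions. The probe with the highest mean signal represented a gene. Of the 99 members, 98 matched a current symbol by accession and 1 by an older symbol. No test across samples was run, and the number of arrays limits the precision. Genes named are the members past 1.5-fold or 2-fold, the extremes of each complex, the 5 largest and 5 smallest differences between lines, the SDH genes, isoform pairs, genes of the other lists past 2-fold, and single members or list genes that a sentence describes, some of which were chosen after their values were seen. Among these, 1 member is not reported here by name. The members and lists were chosen with earlier results of these data known. Other lists covered the cytochrome c and coenzyme Q side, assembly factors outside the rule, biogenesis, the tricarboxylic acid cycle, ribosomal proteins, import, modulators of respiration, other cell types and promoter motifs. Steps were tested on simulated arrays. Alternatives were normexp with loess, background-subtracted signals, each labelling direction, slide or array alone or left out, other probe and background filters, ANOVA, and limma with and without slide as a block. Software was Python 3.11.15 (matplotlib 3.10.9, pandas 2.3.3, numpy 2.4.6) and R 4.3.3 (limma 3.58.1).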

Additional observations from a re-analysis of the deposited data

Results flagged for a closer look

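For COX10, NDUFB3 and COX15, every array of A2780CBN lay on one side of 0 and every array of A2780CBNDXL on the other. They are not the only members with this split, which NDUFS3 also had with a smaller difference of 0.24. The share of all genes with such a split was not counted. The split is by the probe that represents each gene. A dimmer COX15 probe gave 0.75 ± 0.14 in A2780CBN and 0.00 ± 0.20 in A2780CBNDXL, where it did not lie below 0. The difference, A2780CBNDXL minus A2780CBN on the log2 scale, was 1.33 for COX10, 0.75 for NDUFB3 and -0.63 for COX15. These differences were not tested, since each line is 1 sample. COX10 and COX15 act in successive steps of heme A synthesis, and their values ran in opposite directions. The COX10 difference of 1.33 had an SD of 0.72 over matched arrays, and its reverse labelled arrays gave the more extreme values in both lines. With normexp background correction and loess its value in A2780CBN was -0.29.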

How the results depend on the processing

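No called value changed direction under any alternative run. Of the values that answer a comparison, 114 stayed within the spread between arrays or within 1.5 times the count, and 14 moved, as did 13 values of named genes while 563 did not. For members past 2-fold in A2780CBN (1), the count was 2 with background-subtracted signals and with slide 1 alone, 4 with forward labelling alone, 3 with reverse labelling alone, and 0 with normexp and loess, with both channels above background, and without the SDHALP2 probe, a choice made after seeing the data. For A2780CBNDXL (4), it was 1 with forward labelling alone and with the mean over all probes of a gene, and 2, COX11 and NDUFAF4, with normexp. At 1.5-fold, forward labelling alone gave 18 members in A2780CBN and reverse labelling alone 22 in A2780CBNDXL. With reverse labelling alone the median of members in A2780CBNDXL was -0.10 and the median difference between lines 0.0905. Leaving out each array in turn gave 1 member past 2-fold in A2780CBN and 3 to 4 in A2780CBNDXL, 9 to 11 and 7 to 8 past 1.5-fold, medians of -0.22 to -0.20 and -0.02 to -0.01, and a median difference of 0.20 to 0.25. With slide as a replicate block, limma gave 1 and 4 members at 2-fold, and 9 and 7 at 1.5-fold. With background-subtracted signals COX7A2L, and with ratios centred on the median ATP5F1, fell just under 1.5-fold, NDUFA4 had arrays of opposite sign with the former, and without array 1 NDUFAF2 fell just under 2-fold in A2780CBNDXL. Keeping the outlier spots, also chosen after seeing the data, added ATP5G3 and NDUFA10 to the members lower past 1.5-fold in A2780CBN and NDUFA8 to those past it in A2780CBNDXL. The probe named SDHALP2 gave -0.50 and -0.43 under normexp. Dim probes such as those of NDUFA4L2 and COX4I2 limit what can be said of tissue isoforms. With the mean over all probes COX6B2 was added to the members higher past 1.5-fold in both lines. The cause of these changes was not tested.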
